A study of Mus musculus with 3 samples.

Results

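The complement and coagulation genes described here are 45 genes of blood plasma proteins, their receptors and the inhibitors that hold them in check. They were taken from a list of named genes and not by a cut on measured values, but the list was drawn up with earlier results of these data known. They are 45 of the 20284 genes named on the array, and 58 of its 55681 probes detect them. All 45 were well above background on every array, among 13626 genes that were. By where textbooks place their synthesis, 32 were classed as hepatocyte-made, 6 as macrophage-made, 4 as endothelial-made and 3 were given no class.

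The livers came from mice of the strain labelled c57BL6/J, 2 days after hydrodynamic tail vein injection (HTVi), in which a large volume of plasmid solution is driven into the liver through the tail vein. All plasmids carried human YAP, a transcriptional coactivator restrained by the Hippo pathway, as YAP (WT), YAP (1SA) or YAP (2SA), the mutants having serine replaced by alanine. Each form was measured on 1 array of whole liver RNA, and the labels give neither age nor sex, nor whether an array held 1 animal or a pool. Young adult male mice were injected, per the methods. According to the methods, the vector drives YAP from a hepatocyte-specific enhancer and an albumin promoter. The study describes the livers as mosaic, with YAP in only a part of the hepatocytes. The livers of all 3 groups had thus been injected and carried a YAP plasmid, and no uninjected or empty-vector liver was analysed here. Human YAP was not checked on these mouse probes.

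Complement is a set of plasma proteases and binding proteins that mark microbes and dying cells, draw in leukocytes and can pierce membranes. Coagulation is a second cascade of proteases, which ends in thrombin cutting fibrinogen into fibrin. Hepatocytes secrete most of both sets, while C1q and properdin come largely from macrophages and other leukocytes, and the factors of the vessel wall come from endothelium.

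Intensity, the brightness of a spot on a linear scale, was divided by the 75th percentile of each array, namely 290.8 (WT), 275.7 (1SA) and 319.5 (2SA). All differences below are log2 differences of these scaled values. Raw intensities are quoted for each array, so a difference can depart from their ratio. With 1 array a group there was no test and no spread between animals. The limit written after a difference is 2 SD of that difference, derived from spots repeated within an array at like signal. For a probe with several spots it is the limit of their mean, so it is narrower for genes with 10 spots. It covers spot error alone. Hepatocyte markers (16 of 16 measured) gave clear signal on each array, and no spot was saturated. In whole liver, fewer cells of a type and less RNA per cell cannot be told apart.

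Of the 45, 3 (6.67%) differed at least 2-fold between any pair of arrays, against 4.98% of all genes measured, namely the receptors C5ar1 and C3ar1 and the protease Cfd. At 1.5-fold there were 5 (11.1%), with C1qa and Thbd added, against 16.5% of all genes. The median ratio of the highest to the lowest array was 1.18 over the 45 genes and 1.19 over all genes. Every hepatocyte-made gene stayed under 1.5-fold, from 1.04-fold for F11 to 1.43-fold for C8a.

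Comparison by comparison, no member was at least 2-fold higher or lower in YAP (1SA) than in YAP (WT), where 0.727% of all genes were higher and 1.14% lower. In YAP (2SA) against YAP (WT), C5ar1 was the 1 gene higher (1.12% of all genes) and Cfd the 1 gene lower (0.543%). Between the mutants, C3ar1 and C5ar1 were higher in YAP (2SA) (2.47% of all genes) and none was lower (1.12%). At 1.5-fold, Cfd, C3ar1, C5ar1 and Thbd were lower in YAP (1SA) than in YAP (WT), or 4 of 45 genes against 4.67% of all genes, and none was higher, against 3.08%. The same threshold left C5ar1 above WT (3.79% of all genes) and Cfd below it (3.02%) in YAP (2SA), and placed C1qa, C3ar1 and C5ar1 above YAP (1SA) in YAP (2SA) (6.99%) with none below (4.56%). Past the smaller limit of 2 SD of repeated spots, 15 of the 45 genes (33.3%) were higher in YAP (1SA) than in YAP (WT), against 15.7% of all genes, and 10 were lower, against 17.1%. Against WT, YAP (2SA) had 8 genes above that limit (14.7%) and 7 below it (18.6%), and 10 genes were higher in YAP (2SA) than in YAP (1SA) by more than the limit (20.1%) and 18 (40%) lower (24.6%).

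**Figure D1:**
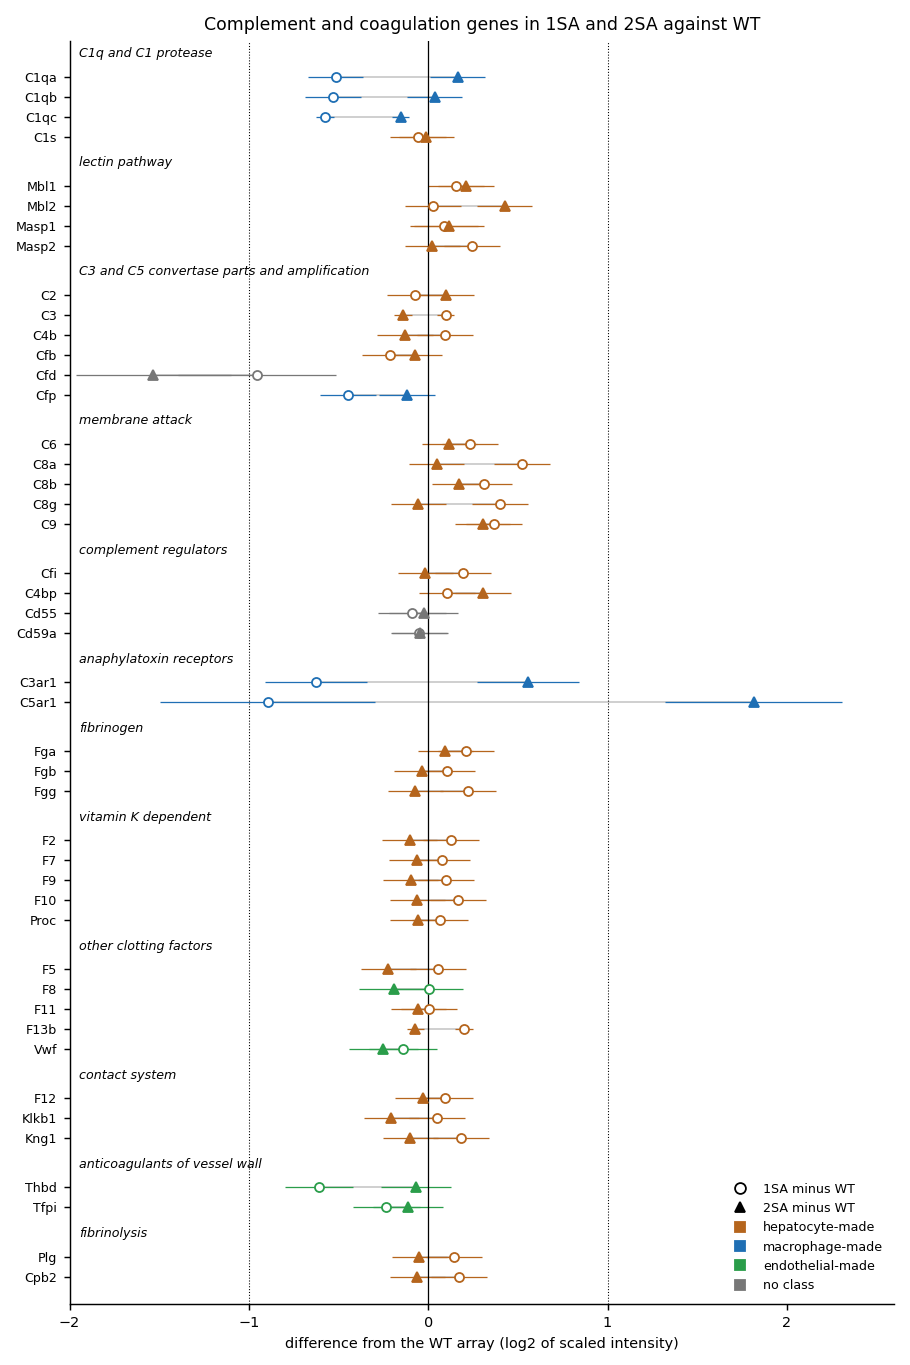
Differences of the 45 genes from the WT array, on the log2 scale of scaled intensity, ordered by role. Open circles are YAP (1SA) and triangles YAP (2SA), colours give the class, bars are 2 SD of repeated spots and dotted lines mark 2-fold. Most hepatocyte-made genes sit near 0, while the 6 macrophage-made genes lie left of 0 in YAP (1SA).

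The macrophage-made genes had a median difference of -0.55 in YAP (1SA) against YAP (WT), and 6 of 6 were lower, where 50.3% of all genes were. In YAP (2SA) against YAP (WT) their median was 0.10 with 4 of 6 higher (43.6% of all genes), and between the mutants it was 0.62 with 6 of 6 higher in YAP (2SA) (45.6%). The hepatocyte-made genes had medians of 0.12, -0.05 and -0.17 in the same order. The medians over all genes were -0.00, -0.03 and -0.03.

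C1q, the molecule that starts the classical pathway when it meets bound antibody or dying cells, is built of chains encoded by the neighbouring genes C1qa, C1qb and C1qc. C1qa (NM_007572) had intensities of 4726 (WT), 3131 (1SA) and 5819 (2SA), a difference of -0.52 ± 0.16 in 1SA and 0.16 ± 0.15 in 2SA against WT. C1qb (NM_009777) had 4468 (WT), 2931 (1SA) and 5033 (2SA), and its differences were -0.53 ± 0.16 and 0.04 ± 0.15. C1qc (NM_007574), with 10 spots an array, had 7236 (WT), 4599 (1SA) and 7145 (2SA), and its differences were -0.58 ± 0.05 and -0.15 ± 0.05. The 1SA array was thus the lowest for each chain, beyond the spot limit, with differences from WT between -0.58 and -0.52. On 2SA they were further apart, C1qa lying above WT and C1qc below it, each past its limit. Between the mutants C1qa was 1.60-fold higher in YAP (2SA). C1s (NM_144938), a protease that works together with C1q and that hepatocytes make, was level by comparison. It had 21365 (WT), 19454 (1SA) and 23306 (2SA) and differences of -0.06 ± 0.16 and -0.01 ± 0.15.

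Properdin (Cfp, NM_008823), which stabilises the alternative pathway convertase, had intensities of 6826 (WT), 4751 (1SA) and 6909 (2SA). It was -0.45 ± 0.16 in 1SA and -0.12 ± 0.15 in 2SA against WT, so it too was lowest on 1SA.

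The receptors of the anaphylatoxins C3a and C5a, small fragments released as C3 and C5 are cut, differed further between the arrays than the C1q chains did, and their signals were dim. C5ar1 (NM_001173550) had intensities of 45.5 (WT), 23.2 (1SA) and 176 (2SA). It was 3.52-fold of WT in YAP (2SA), a difference of 1.81 ± 0.49, and -0.90 ± 0.60 in YAP (1SA), so that 2SA stood 6.55-fold above 1SA. C3ar1 (NM_009779) had 89.4 (WT), 54.9 (1SA) and 145 (2SA), with differences of -0.63 ± 0.29 in 1SA and 0.56 ± 0.28 in 2SA, and 2SA stood 2.27-fold above 1SA. Both receptors were lowest on 1SA, intermediate on WT and highest on 2SA. With normexp background correction, which compresses dim signals, the same 3 differences for C5ar1 (1SA against WT, 2SA against WT, 2SA against 1SA) came to -0.28, 1.13 and 1.41, and for C3ar1 to -0.31, 0.34 and 0.64. Without these receptors the median of the other 4 macrophage-made genes was -0.52, -0.04 and 0.50, so the lower values in 1SA did not rest on them, while the median above WT in 2SA did. C5ar2, a second C5a receptor outside the set, had -0.44 in 1SA and -0.13 in 2SA.

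**Figure D2:**
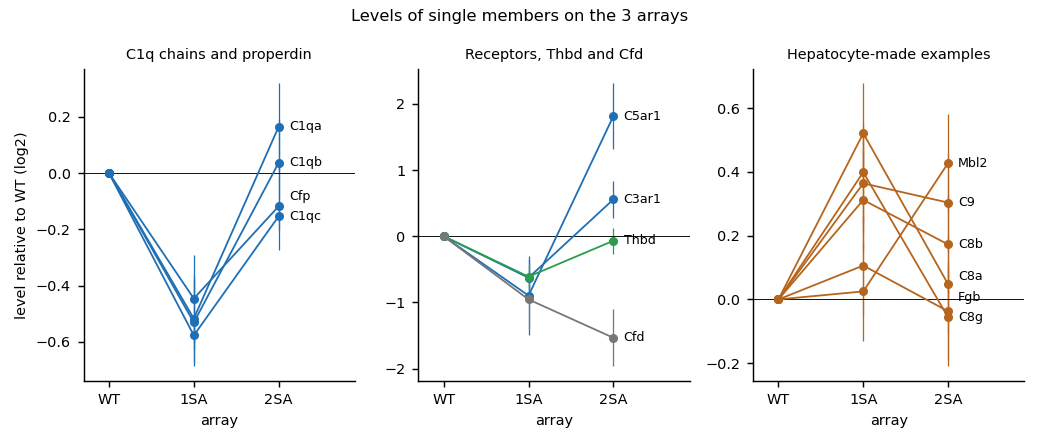
Levels of 14 of the genes on the 3 arrays relative to WT, on the log2 scale of scaled intensity, with bars of 2 SD of repeated spots. C1q chains and properdin dip on 1SA to between -0.58 and -0.45, C5ar1 reaches 1.81 on 2SA, and the hepatocyte-made examples in the right panel stay between -0.06 and 0.52.

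Markers of macrophages were measured for 11 of 12 genes. Most were below WT in 1SA, as these members were, but between the mutants they went both ways. Their median difference from WT was -0.42 for 1SA and -0.84 for 2SA, and 2SA minus 1SA was -0.38. Their summed scaled level came to 297.6 for WT, 220.9 for 1SA and 205.7 for 2SA. Of the 11, 9 were below WT in 1SA, where 50.3% of all genes were, and 9 in 2SA (56.4%). In 2SA against 1SA, 5 of the 11 were higher, near the 45.6% of all genes, whereas all 6 members were. Lyz2, at -0.65 in 1SA and 0.55 in 2SA, and Mpeg1, at -0.53 and 0.17, lay below WT in the first and above WT in the second, as C1qa did. Cd14 (-0.82 and -0.33), Adgre1 (-0.49 and -0.16) and Csf1r (-0.05 and -0.01) were below WT in both and closer to it in 2SA. Marco, Cd5l, Timd4 and Cd163 were below WT in both and further from it in 2SA, between -1.21 and -0.31 in 1SA and between -1.59 and -0.84 in 2SA. Clec4f, a marker of resident Kupffer cells, the macrophages of the liver sinusoid, was 0.45 and -1.56, and Vsig4, a receptor for C3 fragments, was 0.07 and -0.90, which made them the only markers of this list above WT in 1SA. Of the monocyte genes, 4 of 5 were measured, with medians of -0.38 and 1.02 against WT. Cx3cr1 and Chil3 were higher in 2SA at 1.20 and 1.24, as C5ar1 was, but Ccr2 was highest on 1SA at 2.33. The part of these cell types in the values of the C1q chains and receptors was not tested.

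**Figure D3:**
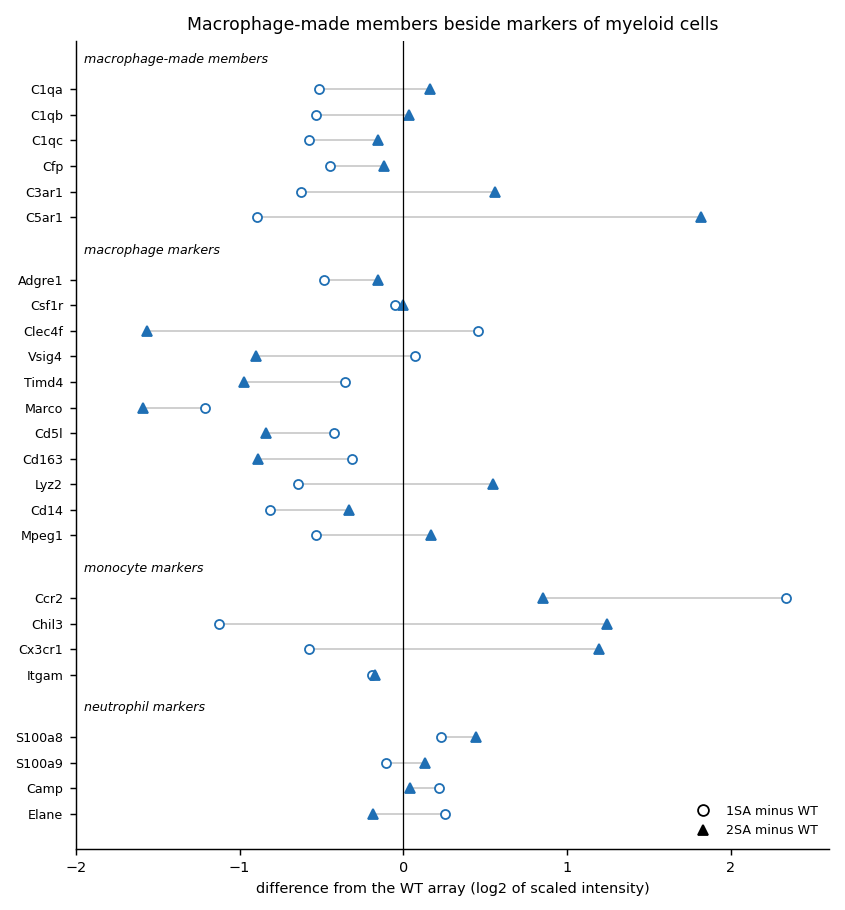
Differences from WT of the 6 macrophage-made genes beside markers of macrophages, monocytes and neutrophils, on the log2 scale of scaled intensity, with open circles for YAP (1SA) and triangles for YAP (2SA). The members and Lyz2 and Mpeg1 lie further right in 2SA than in 1SA, whereas Clec4f and Vsig4 lie further left.

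Most hepatocyte-made genes stood slightly above WT in YAP (1SA), and slightly lower in YAP (2SA) than in YAP (1SA). In 1SA against WT, 29 of 32 were higher, where 49.7% of all genes were, and the exceptions were C1s, C2 and Cfb. In 2SA against WT, 11 of 32 were higher (43.6% of all genes) and 21 lower (56.4%), and in 2SA against 1SA, 25 of 32 were lower (54.4%). Beyond the limit of repeated spots, 15 of 32 were higher in 1SA (15.7% of all genes), and 16 of 32 were lower in 2SA than in 1SA (24.6%). Bright genes at large had offsets of the same signs. The 1095 genes above an intensity of 10000 on each array had medians of 0.08, -0.05 and -0.13, with 791 of them above WT in 1SA, beside 0.12, -0.05 and -0.20 for the 22 hepatocyte-made genes that bright. Before scaling, the medians of the 32 genes were 0.04, 0.08 and 0.04, and quantile normalisation brought the median between the mutants from -0.17 to -0.04.

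**Figure D4:**
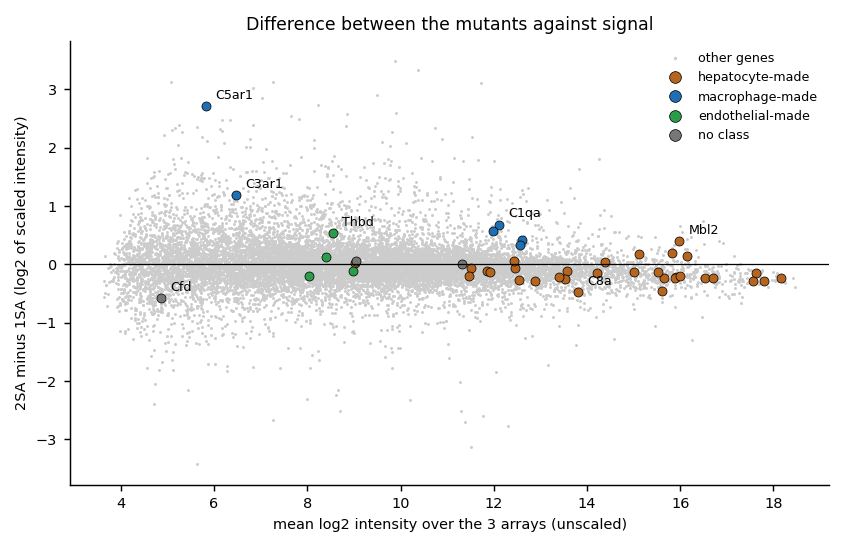
Difference between the mutants (2SA minus 1SA, log2 of scaled intensity) against mean log2 intensity over the 3 arrays, each grey point being a gene outside the set. C5ar1 at 2.71 and C3ar1 at 1.18 lie among dim genes, and the hepatocyte-made genes lie mainly in the bright tail, whose median is -0.13.

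The membrane attack genes, whose products assemble into a pore in the target membrane, had the highest median of all roles in YAP (1SA) against YAP (WT). There each of the 5 lay above WT by more than the spot limit, where 15.7% of all genes did. Their median was 0.36, beside 0.08 for all genes above an intensity of 10000 on each array. In YAP (2SA) against YAP (WT) their median was 0.12. C8a (NM_146148), the alpha chain of C8, had intensities of 12438 (WT), 16920.5 (1SA) and 14123 (2SA), with 0.52 ± 0.16 in 1SA and 0.05 ± 0.15 in 2SA. C8g (NM_027062), its gamma chain, had 45475 (WT), 56842 (1SA) and 48054 (2SA), with 0.40 ± 0.16 and -0.06 ± 0.15. Both were highest on 1SA and near WT on 2SA. C8b (NM_133882), the beta chain, had 16654 (WT), 19597 (1SA) and 20618 (2SA), with 0.31 ± 0.16 and 0.17 ± 0.15. C9 (NM_013485), which polymerises to line the pore, had 2484 (WT), 3030.3 (1SA) and 3367 (2SA), with 0.36 ± 0.16 and 0.30 ± 0.15. Unlike C8a and C8g, C8b and C9 stayed above WT by more than the spot limit on both mutant arrays. C6, which joins the complex before C8, was 0.23 ± 0.16 in 1SA and 0.12 ± 0.15 in 2SA. Hc, which encodes C5 and lies outside the set, had 0.26 and -0.14.

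The lectin pathway is triggered by mannose-binding lectins, which recognise sugars on microbes. Mbl2 (NM_010776) had intensities of 57457 (WT), 55431 (1SA) and 84883 (2SA), and was 0.03 ± 0.16 in 1SA and 0.43 ± 0.15 in 2SA. It was thus level between WT and 1SA and higher on 2SA, the largest positive difference from WT in 2SA among the hepatocyte-made genes. Mbl1 was 0.16 ± 0.16 and 0.21 ± 0.15. Masp1, a protease bound to these lectins, had 489 (WT), 493 (1SA) and 583 (2SA), and Masp2, another, was 0.24 in 1SA and 0.02 in 2SA. A further probe of Masp2, matched to NM_001003893, gave -0.28 in 2SA against 0.02 for the probe used.

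C3, the protein on which all complement pathways converge, had nearly equal raw intensities. They were 292683 (WT), 296728 (1SA) and 291405 (2SA), and over 10 repeated spots the SD on an array was 0.09. The scaled differences were 0.10 ± 0.05 in 1SA and -0.14 ± 0.05 in 2SA, and the difference between the mutants, -0.24, turned to 0.03 under quantile normalisation. C4b, which with C2 forms the classical convertase, was 0.10 and -0.13, and its near-identical paralogue C4a may share the signal, as may the copies of C1s, Kng1, Cd55 and Cd59a. C2 was -0.07 and 0.10. Cfb, the protease of the alternative convertase, was the hepatocyte-made gene furthest below WT in 1SA, at -0.21 ± 0.16, with -0.08 ± 0.15 in 2SA.

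Cfd, also called adipsin, cuts factor B and is made mainly by fat cells. Its probe (NM_013459) was dim, at 51.2 (WT), 25.0 (1SA) and 19.4 (2SA). Against WT it was -0.95 ± 0.44 in 1SA and -1.53 ± 0.43 in 2SA, which is 0.345-fold, and the ladder of WT above 1SA above 2SA was not seen in any other member past 1.5-fold. With normexp correction its differences were -0.31 and -0.64. Of the 5 genes listed as fat cell markers, Cidec was the 1 measured on all arrays, with -1.48 and -1.48. Adipoq, Plin1, Lep and Retn were not well above background on all. Their intensities were at most 10.9, that of Adipoq on WT, so the list rests on Cidec alone and does not show whether fat cells were present. The part of fat cells in the value of Cfd was not tested.

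The regulators that keep complement from attacking the host were close to level. C4bp, which blocks the classical convertase, had intensities of 51835 (WT), 52836 (1SA) and 70379 (2SA), with 0.10 ± 0.16 in 1SA and 0.31 ± 0.15 in 2SA. Cfi, the protease that cuts C3b and C4b, was 0.20 ± 0.16 and -0.02 ± 0.15. Cd55, a membrane regulator that dissolves convertases, had 535 (WT), 476 (1SA) and 577 (2SA), with -0.09 ± 0.19 and -0.03 ± 0.19. Cd59a, a membrane inhibitor of the pore, was -0.05 and -0.05. C4bp was the only one of these beyond the spot limit in 2SA, where 14.7% of all genes were higher by that rule. Cfi was the only one in 1SA (15.7%).

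Fibrinogen, the precursor of the clot, is made of chains encoded by Fga, Fgb and Fgg, which lie next to each other. Fga had intensities of 11116 (WT), 12195 (1SA) and 13036 (2SA), with 0.21 ± 0.16 in 1SA and 0.09 ± 0.15 in 2SA. Fgb had 196357 (WT), 200376 (1SA) and 210212 (2SA), with 0.11 ± 0.16 and -0.04 ± 0.15. Fgg was 0.22 ± 0.16 and -0.07 ± 0.15. The largest ratio between arrays was 1.22-fold, and 1SA was the highest array for each on the scaled values of the probes used. A dimmer second probe of Fga instead had 2SA highest, at 0.11 in 1SA and 0.22 in 2SA. Genes of the acute phase, to which fibrinogen belongs, had medians of 0.19, -0.08 and -0.17 over 16 genes, beside 0.21, -0.04 and -0.14 for the fibrinogen chains. Single genes varied in sign. Of the 16, 12 were above WT in 1SA and 4 below it, and in 2SA 4 were above WT and 12 below it. Of all genes, 49.7% were above WT in 1SA and 56.4% below it in 2SA.

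The vitamin K dependent factors, proteases whose precursors need a vitamin K dependent modification, differed by little between the arrays. F2 (prothrombin) had intensities of 105371 (WT), 109112 (1SA) and 107687 (2SA), with 0.13 ± 0.16 in 1SA and -0.10 ± 0.15 in 2SA. F9, the haemophilia B factor, had 2797 (WT), 2843 (1SA) and 2873 (2SA), with 0.10 ± 0.16 and -0.10 ± 0.15. F7, F10 and Proc, which encodes protein C, lay between these bounds or close to them, the group spanning 0.07 to 0.17 in 1SA and -0.10 to -0.06 in 2SA. F10, at 0.17 ± 0.16 in 1SA, was the only one past the spot limit against WT, and its dimmer second probe gave -0.10 there. Between the mutants, F2, F9 and F10 were lower in 2SA at -0.23, -0.20 and -0.23, past the limit of 0.15, as 24.6% of all genes were past theirs. F7 and Proc were within it. The largest ratio between arrays in the group was 1.17-fold.

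Among the other clotting factors, F5, the cofactor of factor Xa, had intensities of 7811 (WT), 7690.4 (1SA) and 7349.6 (2SA), with 0.05 ± 0.16 in 1SA and -0.22 ± 0.15 in 2SA. F11 differed least of the hepatocyte-made genes, at 0.00 and -0.06. F13b, the carrier chain of the enzyme that cross-links fibrin, had 10 spots an array and gave 0.20 ± 0.05 and -0.07 ± 0.05.

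The contact system starts clotting on foreign surfaces and releases bradykinin. Kng1, which encodes kininogen, had intensities of 219158 (WT), 235559 (1SA) and 224528 (2SA), with 0.18 ± 0.16 in 1SA and -0.10 ± 0.15 in 2SA. Klkb1 (prekallikrein) had 12035 (WT), 11794 (1SA) and 11469 (2SA), with 0.05 ± 0.16 and -0.21 ± 0.15. F12 was 0.09 and -0.03. All 3 were above 0 in 1SA, where 49.7% of all genes were, and below 0 in 2SA (56.4%). Only Kng1 in 1SA and Klkb1 in 2SA passed the spot limit. The largest ratio between arrays was 1.22-fold.

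In fibrinolysis, which dissolves the clot, Plg (plasminogen) had intensities of 63281 (WT), 66275 (1SA) and 67151 (2SA), with 0.14 ± 0.16 in 1SA and -0.05 ± 0.15 in 2SA. Cpb2, which slows fibrinolysis, had 58582 (WT), 62544 (1SA) and 61727 (2SA), with 0.17 ± 0.16 and -0.06 ± 0.15. They differed by little from each other or from the coagulation proteases.

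Of the endothelial-made genes, Thbd stood apart. It encodes thrombomodulin, which turns thrombin into an activator of protein C. Thbd (NM_009378) had intensities of 433 (WT), 269 (1SA) and 454 (2SA), with -0.61 ± 0.19 in 1SA and -0.07 ± 0.19 in 2SA, so 1SA was the low array, as for the C1q chains. Tfpi, the inhibitor of the tissue factor pathway, had 359.5 (WT), 290.0 (1SA) and 365 (2SA), with -0.23 ± 0.19 and -0.11 ± 0.19. Its dimmer probes gave -0.15 and -0.03 in 1SA, each within its spot limit, so the low value on 1SA rests on the probe used. Vwf, the platelet tether, was -0.14 and -0.25. F8, the haemophilia A factor, had 269.8 (WT), 257 (1SA) and 259 (2SA), with 0.00 ± 0.19 and -0.19 ± 0.19, and its dimmer second probe gave -0.25 and -0.62. Endothelial markers (12 of 12 measured) had medians of -0.07 and -0.05, with summed scaled levels of 131.1 (WT), 131.0 (1SA) and 119.4 (2SA). Of the 12, 8 were lower in 1SA than in WT, where 50.3% of all genes were, among them Stab1 at -0.24 ± 0.16 and Egfl7 at -0.23 ± 0.16. The other 4, Stab2, Kdr, Clec4g and Gpr182, lay above WT by 0.12 to 0.14, within the spot limit. The part of the endothelial markers in the values of Thbd and Tfpi was not tested.

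Another 58 genes of these pathways outside the set were listed, of which 50 were measured on all arrays. Of these, 10 (20%) differed at least 2-fold between some pair of arrays, against 4.98% of all genes, and all 10 are named here. F13a1, the catalytic chain of factor XIII made by macrophages and platelets, had intensities of 53.2 (WT), 33.4 (1SA) and 215 (2SA), with -0.60 ± 0.44 in 1SA and 1.88 ± 0.24 in 2SA, in the order seen for C5ar1. Cd93, a surface protein of endothelium and myeloid cells, had 2647 (WT), 1301 (1SA) and 5129 (2SA), with -0.95 ± 0.16 and 0.82 ± 0.15. Of the integrin chains of complement receptors, Itgax at -1.19 and 0.34 and Itgb2 at -0.74 and 0.35 had the same order, whereas Itgam, which stayed under 2-fold, was below WT in both at -0.19 and -0.17. Plau, Plaur and Anxa2, which act in plasminogen activation, had the order of C5ar1 too. They were above WT in 2SA by 1.24, 0.63 and 0.30, and in 1SA they were at -0.33, -0.58 and -0.79. Plau was dim, at 34.2 (WT), 25.9 (1SA) and 89.0 (2SA), and its difference in 1SA lay within its limit of 0.60. Of the collectins, Colec10 was 0.82 in 1SA and -0.95 in 2SA, and Colec11 was 0.37 and -0.71, while Colec12, which stayed under 2-fold, was 0.07 and 0.18. Serpina5, an inhibitor of activated protein C, was above WT in both, at 0.59 and 1.32.

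The promoters show where the letters recognised by liver and myeloid transcription factors occur in some of these genes. RefSeq start sites on GRCm38.p6 were found for 34 of the 45 members, and the 250 bases before each start were searched on both strands. GTTAAT, letters bound by HNF1, occurred in 6 of 24 hepatocyte-made genes (25.0%) against 7.49% of the 27025 genes in the table, and the 6 were C4bp, C8a, C8b, F13b, Fga and Fgb. Cfp was the 1 macrophage-made gene of 5 that held it. The C/EBP letters TTGCNNAA occurred in 8 of 24 (33.3%) against 10.8%, and the nuclear receptor letters AGGTCA in 9 of 24 (37.5%) against 15.8%. The STAT letters TTCNNNGAA occurred in 5 of 24 (20.8%) against 8.13%, and the TEAD letters CATTCC, recognised by the partner through which YAP acts on DNA, in 5 of 24 (20.8%) against 14.4%. These shares describe letters in a window and not bound sites. Matches of different motifs overlapped at 1 place in the members. Shown first are fibrinogen and C8 promoters that hold the HNF1 letters, since these genes formed the fibrinogen and membrane attack groups above. Capitals mark GTTAAT or its reverse complement ATTAAC, and each sequence runs 5′ to 3′ along the gene's strand up to the base before its start.
Fga, chr3:83025903-83026152, plus strand: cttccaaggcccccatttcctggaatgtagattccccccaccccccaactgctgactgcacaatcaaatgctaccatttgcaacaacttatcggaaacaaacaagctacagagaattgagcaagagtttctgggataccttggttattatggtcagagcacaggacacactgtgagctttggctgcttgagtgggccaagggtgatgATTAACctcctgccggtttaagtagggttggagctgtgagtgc
Fgb, chr3:83049864-83050113, minus strand: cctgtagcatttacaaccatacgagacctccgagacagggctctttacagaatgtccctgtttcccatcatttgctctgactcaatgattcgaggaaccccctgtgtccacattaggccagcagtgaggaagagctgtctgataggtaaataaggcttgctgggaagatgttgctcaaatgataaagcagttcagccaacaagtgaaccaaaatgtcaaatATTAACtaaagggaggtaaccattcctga
C8a, chr4:104876399-104876648, minus strand: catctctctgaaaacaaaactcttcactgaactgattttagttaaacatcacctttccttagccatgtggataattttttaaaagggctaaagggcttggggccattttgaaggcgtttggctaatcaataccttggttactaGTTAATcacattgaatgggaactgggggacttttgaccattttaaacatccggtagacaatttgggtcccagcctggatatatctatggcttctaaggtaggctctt
C8b, chr4:104766067-104766316, plus strand: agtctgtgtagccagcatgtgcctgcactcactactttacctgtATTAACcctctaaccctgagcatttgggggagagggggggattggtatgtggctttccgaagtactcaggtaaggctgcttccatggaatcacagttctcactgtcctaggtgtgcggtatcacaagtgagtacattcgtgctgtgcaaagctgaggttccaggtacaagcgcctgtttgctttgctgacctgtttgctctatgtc

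Counted from the start, the capitals begin at position -43 in Fga, -29 in Fgb, -107 in C8a and -206 in C8b. The C1qb, C1qc and C5ar1 promoters are given beside them, as examples of the macrophage-made genes, each of which was lowest on YAP (1SA). There the search was for GAGGAAG, letters bound by PU.1 of the myeloid lineage, present in 12% of all genes and in 1 of the 5 macrophage-made genes with a start site. Capitals mark it or its reverse complement CTTCCTC.
C1qb, chr4:136886201-136886450, minus strand: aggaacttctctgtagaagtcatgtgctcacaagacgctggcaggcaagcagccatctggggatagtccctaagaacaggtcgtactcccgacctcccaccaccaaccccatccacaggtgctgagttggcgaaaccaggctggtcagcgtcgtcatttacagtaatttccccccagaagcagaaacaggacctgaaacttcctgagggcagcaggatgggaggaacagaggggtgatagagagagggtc
C1qc, chr4:136892915-136893164, minus strand: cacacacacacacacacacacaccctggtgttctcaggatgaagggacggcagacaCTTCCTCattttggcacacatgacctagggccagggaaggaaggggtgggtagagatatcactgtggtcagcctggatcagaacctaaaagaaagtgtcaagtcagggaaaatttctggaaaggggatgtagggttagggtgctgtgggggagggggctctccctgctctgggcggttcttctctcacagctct
C5ar1, chr7:16259339-16259588, minus strand: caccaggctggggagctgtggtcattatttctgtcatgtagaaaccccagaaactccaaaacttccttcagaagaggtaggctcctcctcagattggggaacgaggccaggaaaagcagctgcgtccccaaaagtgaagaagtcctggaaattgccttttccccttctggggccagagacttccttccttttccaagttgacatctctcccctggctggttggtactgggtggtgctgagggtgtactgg

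The match in C1qc begins at position -194, and C1qb and C5ar1 hold none in this window. Of 13 genes for the factors and signals that act on these promoters, 12 were measured, with median differences of -0.00 in 1SA and -0.16 in 2SA against WT. Socs3, a feedback inhibitor of cytokine signalling, was 1.11 in 1SA and -0.32 in 2SA, and Foxa2, a liver transcription factor, was -0.10 and -0.80.

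**Figure D5:**
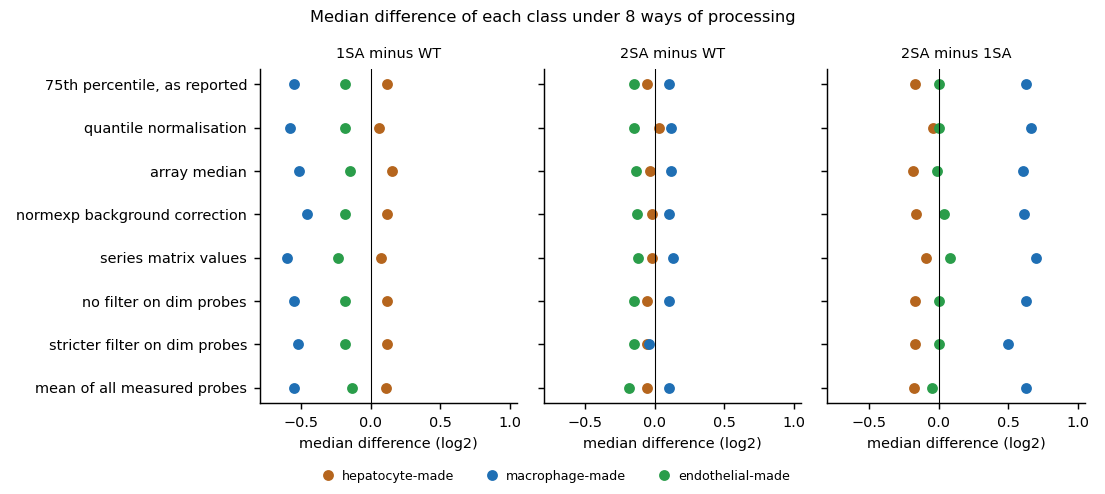
Median difference of the hepatocyte-made, macrophage-made and endothelial-made genes under 8 ways of processing, on the log2 scale, with 1 panel for each comparison. The macrophage-made median stays below 0 in 1SA against WT and above 0 in 2SA against 1SA under each, and is -0.04 in 2SA against WT under the stricter filter, which removes both receptors.

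The plot of class medians by way of processing shows how far the values above depend on scaling and filters. The hepatocyte-made median stayed above 0 in 1SA against WT throughout, and in 2SA against WT it lay on either side of 0.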

How the data were processed

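Total mouse liver RNA of the 3 groups was labelled with Cy3 and hybridised to one-colour Agilent arrays on 1 slide. The deposited intensity of each spot is the authors' background-subtracted signal from Feature Extraction 10.10.1.1, per the file headers, with probes placed on mouse build mm9. The series matrix intensity equals it times a constant per array (3.02, 3.08 and 2.81), whose origin is not given in the sources used here. Control spots and outlier spots (181, 148 and 182) were left out of 59305 an array, log2 spot values were averaged per probe, and the log2 75th percentile was subtracted. A probe counted as measured where at least 50% of its spots were well above background. The brightest probe measured on all arrays stood for a gene. RefSeq accessions gave names for 26762 probes.

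The median SD over repeated spots was 0.07. A gene counted as different at 2-fold. The intensity of 10000 for bright genes was set after values were seen. Named were members at least 1.5-fold different, the brightest and dimmest of each role, and further members chosen after their values were seen. Members, classes, roles and 10 marker lists were chosen with earlier results of these data known. Alternatives were quantile scaling, array median, normexp on median spot brightness (the raw columns the files held), matrix values, other filters, probe means and thresholds. Calculations, tested on simulated data, used Python 3.11.15, pandas 2.3.3, numpy 2.4.6, R 4.3.3 and limma 3.58.1.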

Additional observations from a re-analysis of the deposited data

Results flagged for a closer look

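C3ar1 and C5ar1 were the members that lay below WT in one mutant and above it in the other, both times by more than 2 SD of repeated spots with that limit taken as at least 0.21. C3ar1 was -0.63 in YAP (1SA) and 0.56 in YAP (2SA), and C5ar1 was -0.90 and 1.81. By their own smaller limits C1qa (-0.52 ± 0.16 and 0.16 ± 0.15), C3 (0.10 ± 0.05 and -0.14 ± 0.05) and F13b (0.20 ± 0.05 and -0.07 ± 0.05) had opposite signs too. The limits of C3 and F13b are those of a mean over 10 spots. Each group held 1 array, so the difference between the mutants was not tested.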

How the results depend on the processing

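No paired analysis was possible because the 3 groups had a single array apiece, and the planned slide block was left out for that reason too. Under quantile normalisation the hepatocyte-made median between the mutants was -0.043 (-0.17 as reported) and C3 turned from -0.24 to 0.032. The stricter filter on dim probes removed C3ar1, C5ar1 and Cfd, and gave macrophage-made medians of -0.041 in 2SA against WT (0.10 as reported) and 0.50 between the mutants (0.62). It left 0 members at least 2-fold different in 2SA against WT in either direction (1 and 1) and 0 higher in 2SA than in 1SA (2). With normexp, 0 members were 2-fold lower in 2SA than in WT and 1 was higher in 2SA than in 1SA. At 3-fold these counts were also 0 and 1. In 1SA against WT, 1 member was 2-fold lower with matrix values and 4 at 1.5-fold (0 as reported). Counts of genes at least 2-fold higher in 2SA than in 1SA were 337 as reported, 151 after normexp, 839 without a filter and 147 under the stricter filter. In 1SA against WT, 99 higher and 155 lower became 50 and 48, 553 and 788, and 45 and 54 under these alternatives in turn. In 2SA against WT, 153 higher and 74 lower became 62 and 24, 584 and 723, and 59 and 22. Lower in 2SA than in 1SA were 153 genes, and 54, 685 and 63. Of the 135 single differences, quantile normalisation moved 30, normexp 13 and probe means 6 by more than the spot SD, and the cause was not tested. Dim members are limited by signal over background, and no value carries the spread between animals.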

Other observations

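Markers of other blood cells gave values beside which the members can be read. Of 7 platelet genes 3 were measured, with medians of -0.47 and 0.05, and Pf4, a platelet chemokine, was -0.47 in YAP (1SA) and 0.96 in YAP (2SA) against WT. Of 7 neutrophil genes 4 were measured, with medians of 0.22 and 0.09. Of 6 red cell genes 4 were measured, with medians of 0.67 and 0.27. The hepatocyte markers had medians of 0.14 and -0.14. Marco, a scavenger receptor of macrophages, was -1.21 and -1.59, below WT in both mutants, as was C1qc of the C1q chains but not C1qa or C1qb.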
